A study of Mus musculus with 17 samples.

Results

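The genes for the subunits of the oxidative phosphorylation complexes were described in the left ventricular apex of male C57Bl6/J mice after transverse aortic constriction (TAC), a band around the aorta that loads the left ventricle with pressure. Members were taken by symbol among protein-coding genes (Nduf subunits, Sdha to Sdhd, Uqcr genes, Cyc1, Cox4 to Cox8 genes, Atp5 genes and the protein-coding genes of the mitochondrial genome). There were 99 members of 21798 genes, 86 encoded in the nucleus and 13 in mitochondrial DNA. Of these, 98 passed the filter on low values, at least 0.5 CPM, reads scaled to a fixed library total, in at least 3 libraries. Cox7b2, a testis isoform of a complex IV subunit, was the member that did not pass, with a highest value of 0.15 CPM. The members tested were 38 nuclear and 7 mitochondrial genes of complex I, 4 nuclear genes of complex II, 9 nuclear and 1 mitochondrial of complex III, 17 nuclear and 3 mitochondrial of complex IV, and 17 nuclear and 2 mitochondrial of complex V. Ndufa4 and its paralog Ndufa4l2 were counted with complex I by their names, although the Ndufa4 protein is now known as a complex IV subunit.

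Mice were 7 to 8 weeks old at TAC or Sham surgery, were treated by oral gavage from the week after it, and were killed 3 weeks after surgery. Each mouse received 6 gavages of 29P at 50 μg/kg, an oral prodrug of an RGD mimetic that binds αvβ3 integrin, or of saline as vehicle (Veh). The 4 groups were Sham Veh (5 mice), Sham 29P (3 mice), TAC Veh (3 mice) and TAC 29P (6 mice), with 1 library of polyadenylated RNA per mouse, named here by the S number in its title. All mice were wild-type males of 1 strain, and Sham mice had the operation without the ligature. A TAC Veh library that clustered with Sham libraries in the study's principal component analysis was removed before deposit. This removal bears on every TAC against Sham difference below and on every comparison of TAC 29P with TAC Veh.

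Oxidative phosphorylation passes electrons from NADH through complex I, or from succinate through complex II, to complex III, cytochrome c and complex IV, and the proton gradient built on the way drives ATP synthesis by complex V. Complex II is encoded wholly in the nucleus, whereas the other complexes combine nuclear subunits with core subunits from mitochondrial DNA, which is transcribed as long polycistronic RNAs that are cut at transfer RNAs. The heart depends on this pathway for most of its ATP, and striated muscle carries its own isoforms of several small complex IV subunits.

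Several properties of the libraries touch the results. The spacing of low CPM values put the depth between 14.2 and 23.8 M reads (median 20.4 M), lowest in the Sham 29P library S14. S14 also had the lowest nuclear and the highest mitochondrial share of all 17 libraries and listed 3609 genes at 0 against 1444 to 2786 in the others. Its nuclear members were the lower the higher their GC content (Spearman's rho -0.45 over 81 members). The trend was not particular to the members, with a rho of -0.56 over 15890 genes in S14. The rho over members differed in sign between libraries and with surgery. It was -0.45 to 0.28 in Sham libraries, above 0 in 3 of 8, and -0.17 to 0.49 in TAC libraries, above 0 in 8 of 9. Libraries S18, S19 and S20 (1 TAC 29P and 2 Sham Veh) held the atrial transcripts Sln, Myl7 and Myl4 at 162 to 441, 335 to 895 and 518 to 1207 CPM, against at most 0.63, 1.0 and 4.43 CPM in the other 14. The animal numbers in the labels fall into 4 runs, which hold libraries S1 to S11, S12 to S14, S15 to S16 and S18 to S20. The labels do not call these runs batches, and each holds Sham and TAC mice. Within TAC, treatment was largely tied to the run. The TAC 29P libraries were from the first run except S18, and of the TAC Veh libraries only S2 was. Cardiomyocyte markers summed to 39965 to 54939 CPM in Sham and to 41467 to 50326 CPM in TAC libraries, as the labelled tissue requires.

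Members differed widely in level. Per kilobase of annotated exon (all exons of a gene joined), mean CPM in Sham Veh was highest for mt-Co1, the catalytic subunit of complex IV, at 73106 CPM per kb. This length counts every annotated exon (4237 bases for Atp5b), so ranks among nuclear members and complexes depend on the annotation. Mitochondrial members ranged from 4579 CPM per kb for mt-Nd4l upwards, all above the highest nuclear member. Among nuclear members, Atp5a1 (the alpha subunit of the catalytic head of complex V) and Cox8b (the muscle isoform of a small complex IV subunit) led with 855 and 824 CPM per kb. Median levels of nuclear members by complex were 119 CPM per kb for complex I, 239 for complex II, 216 for complex III, 256 for complex IV and 161 for complex V. These medians cover the 38, 4, 9, 17 and 14 members with an annotated length. Ndufa4l2 (8.71 CPM per kb) and Atp5g2 (0.845 CPM per kb), the latter a copy of the gene for the c-ring of complex V, were the lowest of complexes I and V.

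Summed over members, RNA of both genomes took a smaller share of the libraries after TAC. Values with ± are the mean ± SD over the 5 Sham Veh, 3 Sham 29P, 3 TAC Veh or 6 TAC 29P libraries. The nuclear members summed to 3.24 ± 0.189% of all reads for Sham Veh and to 2.66 ± 0.0972% for TAC Veh. The 3 TAC Veh libraries held 2.58, 2.63 and 2.77%, below the Sham Veh range of 3.06 to 3.53%. TAC 29P libraries held 2.68 to 3.02% (median 2.81%), below Sham Veh without overlap, and Sham 29P libraries held 3.17 and 3.15% in S4 and S15 and 2.53% in S14. The mitochondrial members summed to 33.5 ± 3.64% of all reads for Sham Veh and to 26.1 ± 2.22% for TAC Veh. Their range was 29.1 to 38.7% in Sham Veh, 32.9 to 40.0% in Sham 29P, 23.6 to 27.9% in TAC Veh and 25.1 to 29.4% in TAC 29P, so that only the lowest Sham Veh and the highest TAC 29P library crossed.

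Because the mitochondrial members alone took 23.6 to 40.0% of the reads, a change in them shifts every other CPM value, and nuclear members were also expressed per read off the mitochondrial genome (mt-free scaling). On that scale the nuclear members took 4.89 ± 0.345% for Sham Veh, 4.57 ± 0.312% for Sham 29P, 3.6 ± 0.230% for TAC Veh and 3.91 ± 0.255% for TAC 29P. Sham and TAC Veh libraries did not overlap, with a lowest Sham value of 4.21% in S14 against a highest TAC Veh value of 3.84%, while the highest TAC 29P library reached 4.28%. Within the 4 runs of animal numbers, the log2 ratio of TAC to Sham means was -0.19, -0.04, -0.26 and -0.30 with the total as deposited and -0.35, -0.21, -0.41 and -0.44 with mt-free scaling, and -0.36, -0.38, -0.34 and -0.36 for the mitochondrial members. The ratio of mitochondrial to nuclear member RNA was 8.25 to 11.6 in Sham Veh, 9.14 to 10.2 in TAC Veh and 9.26 to 10.3 in TAC 29P, which overlap, and 15.8 in S14. In a bulk sample, fewer cells of a type and less RNA per cell cannot be told apart.

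**Figure D1:**
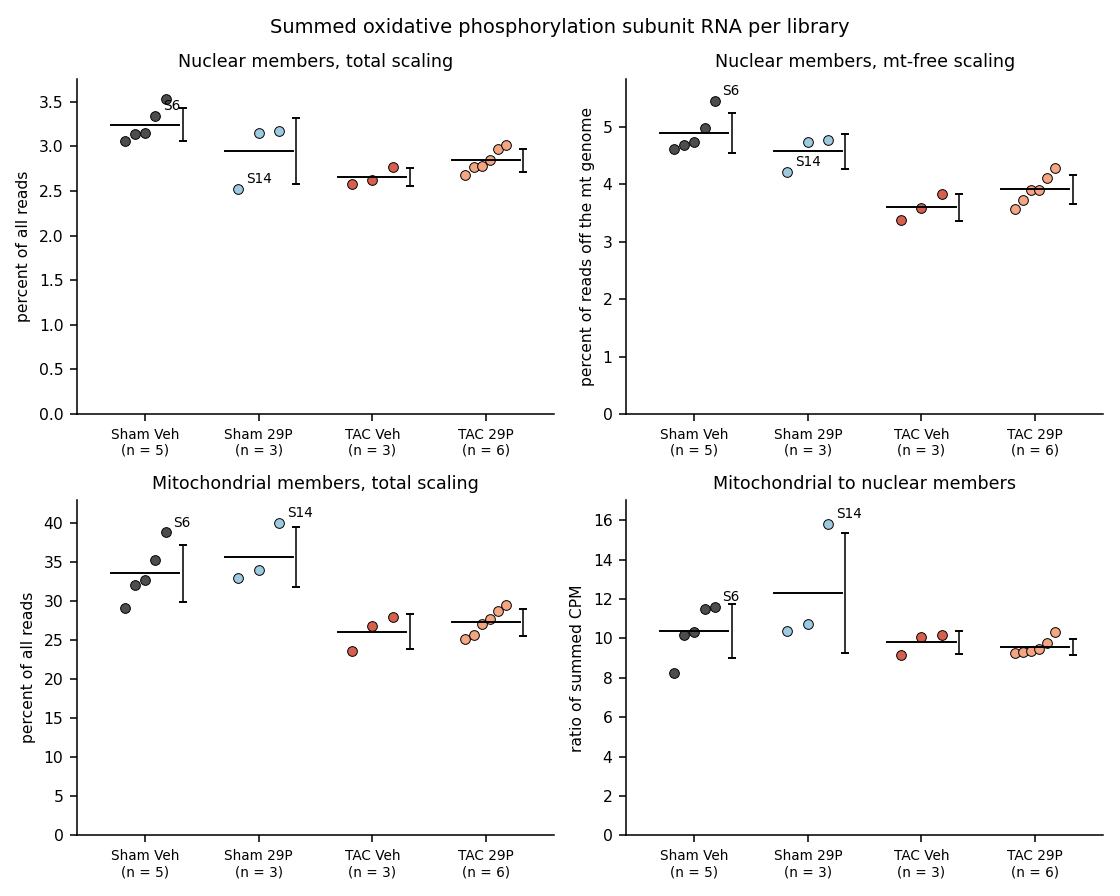
Summed RNA of the members in each library by group, as percent of all reads (nuclear and mitochondrial members), as percent of reads off the mitochondrial genome (nuclear members), and as the ratio of mitochondrial to nuclear members. Each point is 1 library, the line is the group mean and the bar 1 SD; all 3 TAC Veh libraries lie below all 5 Sham Veh libraries in the first 3 panels, and S14 stands apart.

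By complex, every nuclear sum had a lower mean in TAC Veh than in Sham Veh. Complex I summed to 0.846 to 0.973% of all reads in Sham Veh and to 0.715 to 0.763% in TAC Veh. Complex IV summed to 0.511 to 0.614% in Sham Veh and to 0.453 to 0.463% in TAC Veh, and complex V to 1.13 to 1.30% and 0.929 to 1.01%. In these 3 complexes the groups did not overlap. Complex II (0.188 to 0.236% against 0.169 to 0.191%) and complex III (0.335 to 0.403% against 0.312 to 0.344%) overlapped in their ranges. With mt-free scaling these 2 separated as well, complex II at 0.290 to 0.345% in Sham Veh against 0.223 to 0.266% in TAC Veh and complex III at 0.517 to 0.591% against 0.410 to 0.478%. Among mitochondrial members, mean sums were 11.5 and 8.86% for complex I, 4.06 and 3.28% for complex III and 16.3 and 12.3% for complex IV, while complex V differed by less than its SD (1.70 ± 0.265% against 1.60 ± 0.197%).

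The first comparison, TAC Veh against Sham Veh, asks what pressure overload does without drug. Of the 85 nuclear members tested, 30 fell and 0 rose at an adjusted p of 0.05 or less (limma on log2(CPM + 0.1), Benjamini-Hochberg over 16218 genes), and of the 13 mitochondrial members 4 fell and 0 rose. Over all genes tested, 1.98% fell and 23.6% rose. At the unadjusted threshold of 0.05, 47 nuclear members were lower and 1 higher and 8 mitochondrial members were lower, beside 3.49% lower and 38.4% higher over all genes. The mean was lower in TAC Veh for 78 of 85 nuclear and 13 of 13 mitochondrial members, and for 18.8% of all genes. The median log2 fold change was -0.27 for nuclear and -0.38 for mitochondrial members against +0.33 for all genes, which places them 0.60 and 0.72 below the all-gene median. Values of the groups did not overlap, with TAC Veh lower, for 42 nuclear and 7 mitochondrial members and for 2.23% of all genes.

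These counts moved with the scaling and with single libraries, while the medians of both genomes stayed below 0 in each of the fits named here. With mt-free scaling 56 nuclear and 5 mitochondrial members fell and 0 rose (3.19% of all genes fell, 10.5% rose), with medians of -0.42 and -0.54, and with TMM factors 71 and 6 fell and 0 rose (5.83% of all genes fell, 4.31% rose). Without the TAC Veh library S2, 2 nuclear and 0 mitochondrial members fell (0.279% of all genes), without S14 45 and 7 (2.52% of all genes), and without S18, S19 and S20 9 and 0 (1.02% of all genes), with nuclear medians of -0.25, -0.27 and -0.27. The alternatives that leave out named libraries, other than each in turn, were chosen after seeing the data. With the run of each animal number as a term of the model, 18 nuclear and 3 mitochondrial members fell and 0 nuclear members rose (1.3% of all genes fell).

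**Figure D2:**
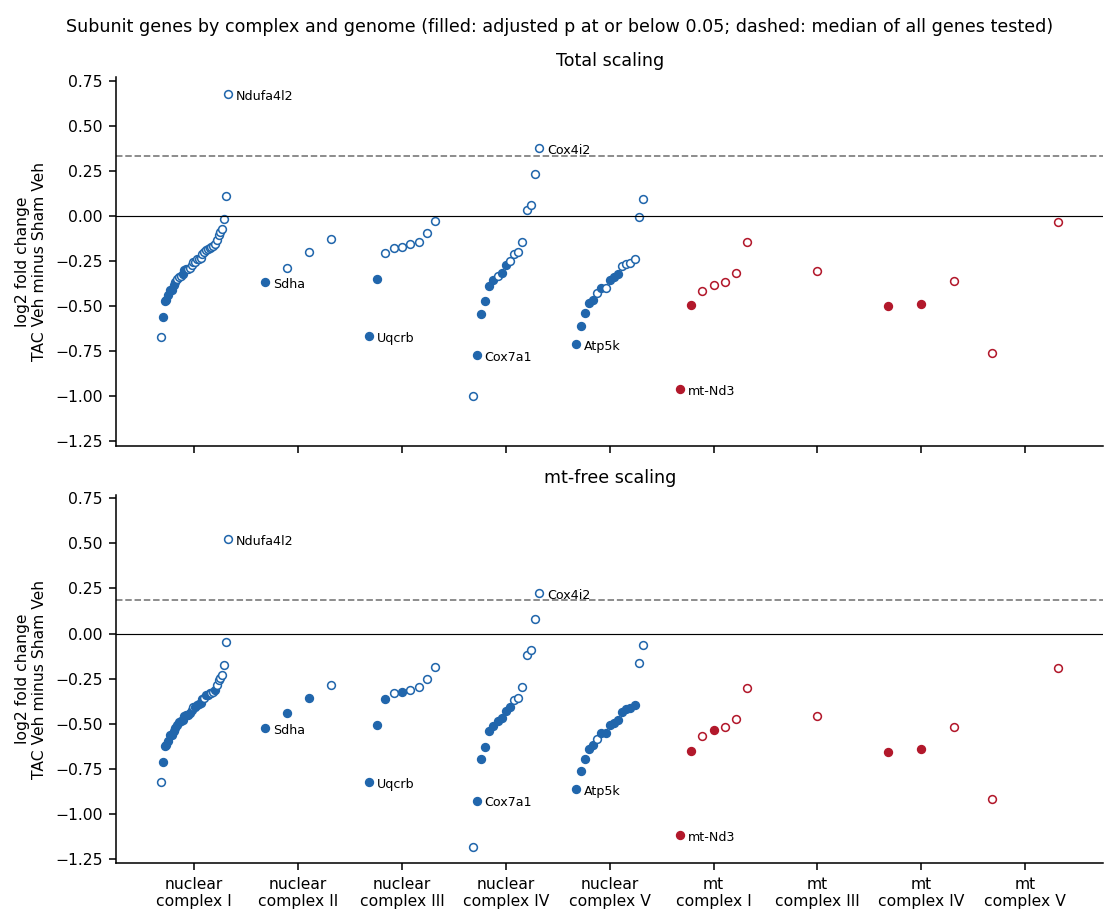
Log2 fold change of each member between TAC Veh and Sham Veh, by complex and genome, with the total as deposited (top) and with mt-free scaling (bottom). Filled points are members whose adjusted p was at most 0.05, and the dashed line marks the median of all genes tested; 78 of 85 nuclear members lie below 0 with the total as deposited, and all 98 members but Ndufa4l2 and Cox4i2 lie below the dashed line.

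In complex I, 11 of 38 nuclear members fell (median -0.25), and 26 of 38 with mt-free scaling. Ndufv2, an iron-sulfur subunit of the module that oxidises NADH, was at 411, 528, 427, 492 and 475 CPM in Sham Veh and at 313, 369 and 372 CPM in TAC Veh. The groups did not overlap, and the log2 fold change was -0.41 (SE 0.099, adjusted p = 0.0098). Ndufs4, an accessory subunit needed for a stable complex, was at 170 to 238 CPM in Sham Veh and at 131, 153 and 160 CPM in TAC Veh and fell by 0.44 on the log2 scale (adjusted p = 0.013). Ndufs1, the largest iron-sulfur subunit, fell by 0.30 (adjusted p = 0.048). The core subunits Ndufs3, Ndufs8 and Ndufv1 did not pass, with log2 fold changes of -0.18, -0.13 and -0.20 and adjusted p-values of 0.23 to 0.50, and Ndufs7 was at -0.02 (adjusted p = 0.96).

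In complex II, 1 of 4 members fell. Sdha, the flavoprotein that oxidises succinate, was at 1175, 912, 993, 863 and 1106 CPM in Sham Veh and at 736, 816 and 782 CPM in TAC Veh. All 3 TAC Veh libraries were below the lowest Sham Veh library, with a log2 fold change of -0.37 (SE 0.114, adjusted p = 0.027). Sdhb, Sdhc and Sdhd had log2 fold changes of -0.20, -0.29 and -0.13 (adjusted p = 0.20, 0.068 and 0.30), and with mt-free scaling 3 of the 4 fell.

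In complex III, 2 of 9 nuclear members fell, both small subunits. Uqcrb, a subunit near the ubiquinone site, was at 116, 200, 125, 184 and 155 CPM in Sham Veh and at 89.0, 92.6 and 108 CPM in TAC Veh. The groups were apart by 1 narrow gap, and the log2 fold change was -0.67 (SE 0.194, adjusted p = 0.021). Across all Sham libraries Uqcrb was highest in S6, S14 and S19, at 200, 192 and 184 CPM. These libraries had the lowest Spearman's rho of level with GC content over all genes, at -0.38, -0.56 and -0.30. Uqcrh, the hinge subunit, fell by 0.35 (adjusted p = 0.034). The subunits that carry the redox centres or the core frame had smaller differences that did not pass, Uqcrfs1 -0.21, Cyc1 -0.03, Uqcrc1 -0.10 and Uqcrc2 -0.17 on the log2 scale. Cyc1, the heme-bearing cytochrome c1, had the log2 difference nearest 0 of these, with groups that overlapped (375 to 528 CPM against 421 to 493.5 CPM).

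Complex IV held the member with the smallest p of all, Cox7a1. It encodes the heart and muscle isoform of a small subunit and lies at chr7:30184144-30186078 on the plus strand (GRCm38, GENCODE annotation). Cox7a1 was at 250.01, 343, 258, 295 and 304 CPM in Sham Veh, 248, 219 and 244 CPM in Sham 29P, 161, 168 and 177 CPM in TAC Veh, and 162 to 224 CPM (median 196 CPM) in TAC 29P. Every TAC Veh library was below every Sham library, and the only TAC 29P library to cross Sham 29P was the highest, at 224 CPM against 219 CPM in S14. The log2 fold change of TAC Veh against Sham Veh was -0.77 (SE 0.114, adjusted p = 0.00082, exact two-sided permutation p = 0.0179, the smallest that 3 against 5 libraries allow). Cox6c, Cox7b and Cox8b, further small subunits, fell by 0.54, 0.47 and 0.39 on the log2 scale (adjusted p = 0.0064, 0.0077 and 0.040), and Cox7a2, the paralog of Cox7a1 found in most tissues, fell by 0.31 (adjusted p = 0.048). Cox5b-ps, which also passed, is nearly identical to Cox5b, and how reads were split between them is uncertain. The lowest log2 fold change, -1.001 for the testis isoform Cox6b2 (adjusted p = 0.093), rested on values of at most 1.39 CPM.

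In complex V, 9 of 17 members fell (median -0.35). Atp5pb, a subunit of the peripheral stalk, was at 619, 749, 654, 695 and 710 CPM in Sham Veh and at 486, 535 and 537 CPM in TAC Veh. The groups did not overlap, and the log2 fold change was -0.40 (SE 0.091, adjusted p = 0.0071). Atp5h, also of the stalk, fell by 0.46 (adjusted p = 0.0076), and Atp5e, the epsilon subunit of the central stalk, by 0.61 (adjusted p = 0.010). Atp5c1, the gamma subunit that turns inside the catalytic head, fell by 0.32 (adjusted p = 0.013). Atp5k, a small membrane subunit, had a log2 fold change of -0.71 (adjusted p = 0.032), although 1 TAC Veh library (136 CPM) was above the lowest Sham Veh library (133 CPM). The catalytic alpha and beta subunits Atp5a1 and Atp5b had log2 fold changes of -0.28 and -0.26 with adjusted p-values of 0.073 and 0.075, and they passed with mt-free scaling (-0.43 and -0.42, adjusted p = 0.015 and 0.014). The c-ring genes Atp5g1, Atp5g2 and Atp5g3 had log2 fold changes of +0.09, -0.43 and -0.27 that did not pass (adjusted p = 0.78, 0.25 and 0.059).

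Among the 13 mitochondrial members, all means were lower in TAC Veh, and mt-Nd3, mt-Nd1, mt-Co2 and mt-Co3 passed. mt-Nd3, a small membrane subunit of complex I, was at 2236, 4931, 2280, 4124 and 2676 CPM in Sham Veh and at 1501, 1361 and 1940 CPM in TAC Veh. The groups did not overlap, Sham Veh spread widely, and the log2 fold change was -0.96 (SE 0.261, adjusted p = 0.016). mt-Nd1 was at 24194 to 31101 CPM in Sham Veh and at 17104, 19752 and 19583 CPM in TAC Veh, with a log2 fold change of -0.50 (adjusted p = 0.021). mt-Co2 and mt-Co3, core subunits of complex IV, fell by 0.50 and 0.49 on the log2 scale (adjusted p = 0.025 for both). mt-Co1 was at 97061 to 130204 CPM in Sham Veh and at 78644 to 93160 CPM in TAC Veh, without overlap, but did not pass (-0.36, adjusted p = 0.11). The smallest difference was in mt-Atp6, the channel subunit of complex V, at 12800 to 18462 CPM against 13075 to 16591 CPM (log2 fold change -0.03), and this sign turned positive without S6 and S14 (0.03) and after removal of the GC trend (0.14).

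The composition of the mitochondrial messenger RNA was set out as each gene's share of the summed members. mt-Co1 made up 33.7 ± 0.989% of the summed mitochondrial members for Sham Veh and 33.7 ± 0.517% for TAC Veh. mt-Atp6 made up 4.69 ± 0.386% and 5.86 ± 0.333%, without overlap (at most 4.91% against at least 5.54%). With 29P the shares were 4.12 to 5.89% in Sham and 4.85 to 5.44% in TAC libraries, which overlap. mt-Nd1 made up 7.94 ± 0.367% and 7.22 ± 0.124%, and mt-Nd3 0.952 ± 0.264% and 0.617 ± 0.120%. Mitochondrial members have a lower GC content than nuclear ones (median 37.1% against 51.3% of transcript bases), and libraries differed in how level tracked GC content. With the GC trend of each library removed, 1 mitochondrial member (mt-Nd3) and 36 of 81 nuclear members with a GC value still fell in TAC Veh and 1 (Ndufa4l2) rose, beside 2.23% of all genes that fell and 30.7% that rose.

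Mitochondrial members shared bases in 4 pairs, which limits how far their reads can be told apart. The 2 longer overlaps on the plus strand are shown from the GRCm38 reference because both genes of each pair are counted among the members, with 12 bases on either side in lower case and the bases that belong to both genes in capitals.
mt-Atp8 and mt-Atp6 (chrM:7915-7981, plus strand): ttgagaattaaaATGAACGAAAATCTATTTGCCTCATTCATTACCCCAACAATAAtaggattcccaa
mt-Nd4l and mt-Nd4 (chrM:10155-10185, plus strand): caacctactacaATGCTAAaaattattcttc
mt-Atp8 and mt-Atp6 share 43 bases, in which the second gene starts inside the first, and mt-Nd4l and mt-Nd4 share 7 bases. mt-Atp6 and mt-Co3 share 1 base, at position 8607. mt-Nd6 lies on the minus strand (chrM:13552-14070) and shares 14 bases with the end of mt-Nd5, from 13552 to 13565. The study's library preparation included a strand specificity reagent. Whether the counting used strand is not given in the sources used here, so the values of mt-Nd5 and mt-Nd6 are uncertain. If it did not, reads from the opposite strand could also count outside the 14 shared bases. mt-Atp8, the short partner of mt-Atp6, had a log2 fold change of -0.76 that did not pass (adjusted p = 0.12), with 749 to 1704 CPM in Sham Veh and 608 to 770 CPM in TAC Veh.

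Paralogous subunits were compared within a library, since a ratio of 2 genes does not depend on the total. A ratio can still follow the trend with GC content, which differed between libraries and with surgery. The ratios were not refitted with that trend removed. For 5 pairs of isoforms, log2 ratios were compared by exact two-sided permutation tests, with p-values adjusted over 25 tests. These tests were chosen after the values of the members had been seen. Over all libraries, the heart and muscle isoforms Cox7a1, Cox6a2 and Cox8b lost ground to the isoforms of most tissues, Cox7a2, Cox6a1 and Cox8a, and Cox4i2 and Ndufa4l2, both known as oxygen-responsive isoforms, gained on Cox4i1 and Ndufa4.

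The log2 ratio of Cox7a1 to Cox7a2 was 0.29, 0.30, 0.10, 0.17 and 0.22 in Sham Veh, 0.16, 0.37 and 0.15 in Sham 29P, -0.25, -0.30 and -0.17 in TAC Veh, and -0.29 to 0.05 (median -0.10) in TAC 29P. No TAC library reached the lowest Sham library. Per kilobase of annotated exon, the mean ratio was 2.05 ± 0.117 for Sham Veh and 1.49 ± 0.0670 for TAC Veh. TAC minus Sham was -0.46 with vehicle (exact p = 0.0179, adjusted p = 0.037), -0.33 under 29P (exact p = 0.0119, adjusted p = 0.037) and -0.37 over all 9 TAC and 8 Sham libraries (exact p = 8.23e-05, adjusted p = 0.00069).

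For Cox6a2 to Cox6a1 the mean log2 ratio was 3.90 ± 0.12 for Sham Veh, 3.94 ± 0.13 for Sham 29P, 3.45 ± 0.23 for TAC Veh and 3.52 ± 0.099 for TAC 29P. All 9 TAC libraries were below all 8 Sham libraries, by 0.41 on average (exact p = 8.23e-05, adjusted p = 0.00069). Neither gene passed alone in TAC Veh against Sham Veh (Cox6a2 -0.21 and Cox6a1 +0.23 on the log2 scale, adjusted p = 0.30 and 0.34). For Cox8b to Cox8a the mean was 2.41 ± 0.051 for Sham Veh, 2.35 ± 0.16 for Sham 29P, 1.96 ± 0.24 for TAC Veh and 2.004 ± 0.26 for TAC 29P. Over all libraries TAC was lower by 0.40 (exact p = 0.00053, adjusted p = 0.0027), with overlap because the Sham 29P library S4, at 2.16, lay below TAC libraries of both treatments, and under 29P alone the difference of -0.34 did not pass (exact p = 0.083, adjusted p = 0.14).

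The log2 ratio of Cox4i2, at 5.91 to 8.32 CPM in Sham Veh, to Cox4i1 rose from -7.45 ± 0.19 for Sham Veh to -6.88 ± 0.35 for TAC Veh (exact p = 0.0179, adjusted p = 0.037). Over all libraries it was higher by 0.66 in TAC, with the lowest TAC library at -7.1469 and the highest Sham library at -7.1476, so that the groups all but touched (exact p = 8.23e-05, adjusted p = 0.00069). The log2 ratio of Ndufa4l2 to Ndufa4 was higher by 0.97 over all libraries (exact p = 0.00021, adjusted p = 0.0013), and in TAC Veh against Sham Veh it was higher by 1.14 without overlap, which did not pass (exact p = 0.036, adjusted p = 0.064). Each of the 5 pairs had the same sign within all 4 runs of animal numbers. Without S14, which leaves 6 against 2 libraries under 29P, none of the 5 ratios passed there (adjusted p = 0.074 to 0.33), and over all libraries all 5 did (adjusted p = 0.0022 to 0.0061). Without S18, S19 and S20 the 3 against 3 libraries of TAC Veh and Sham Veh cannot give a p below 0.1, and the differences over all remaining libraries were -0.40, -0.45, -0.40, 0.69 and 0.93 in the order given (exact p = 0.00033 to 0.0040).

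Between TAC 29P and TAC Veh none of the 5 ratios passed. The differences were 0.13 for Cox7a1 to Cox7a2 (exact p = 0.17), 0.07 for Cox6a2 to Cox6a1 (exact p = 0.54), 0.04 for Cox8b to Cox8a (exact p = 0.88), 0.07 for Cox4i2 to Cox4i1 (exact p = 0.68) and -0.16 for Ndufa4l2 to Ndufa4 (exact p = 0.62), with overlap in every pair. Between Sham 29P and Sham Veh the differences were -0.09 to 0.17 (exact p = 0.55 to 0.95).

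**Figure D3:**
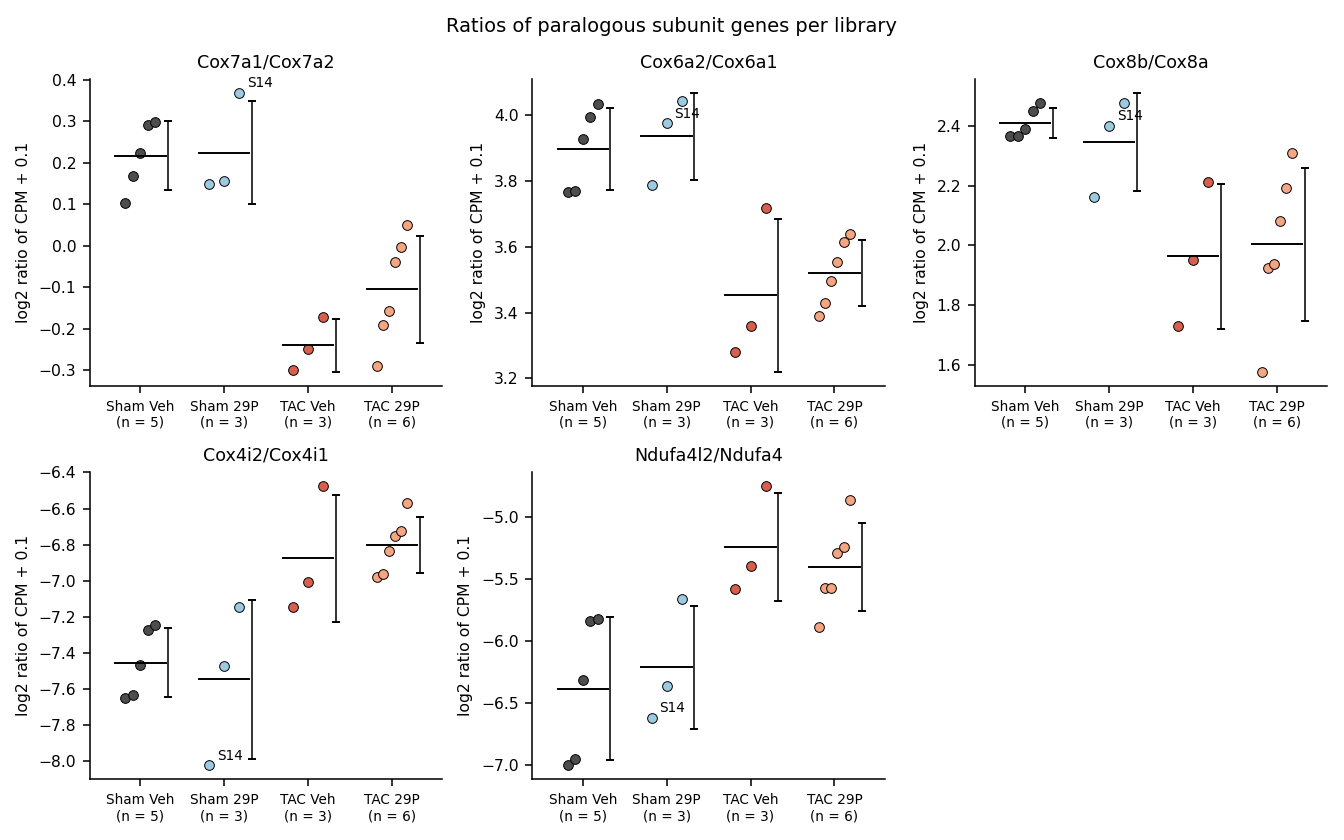
Log2 ratio of CPM + 0.1 for 5 pairs of paralogous subunit genes in each library, by group, with a vertical axis that does not start at 0 because the values are log ratios. Points are libraries, the line is the group mean and the bar 1 SD; all 9 TAC libraries lie on 1 side of all 8 Sham libraries for Cox7a1/Cox7a2, Cox6a2/Cox6a1 and, by a margin too small to see, Cox4i2/Cox4i1.

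The sequences upstream of paralogs are shown because the muscle and the general isoforms of these pairs moved apart. No sequence of Cox6a2 is shown, so Cox6a1 stands without its muscle partner. Both partners are shown for Cox7a1 with Cox7a2 and for Cox8b with Cox8a only. Each run is the 250 bases before the RefSeq start, 5′ to 3′ on the strand of the gene (GRCm38.p6), and capitals mark matches, on either strand, to the letters of the CCAAT box (CCAAT), the GC box of Sp1 (GGGCGG), the NRF1 core (GCATGCGC) and the ETS motif (CCGGAAG).
Cox7a1 (chr7:30183921-30184170, plus strand): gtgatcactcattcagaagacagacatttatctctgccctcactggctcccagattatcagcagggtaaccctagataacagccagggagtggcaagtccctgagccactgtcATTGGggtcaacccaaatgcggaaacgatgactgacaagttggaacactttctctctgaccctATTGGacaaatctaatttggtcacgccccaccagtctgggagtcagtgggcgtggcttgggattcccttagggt
Cox7a2 (chr9:79759854-79760103, minus strand): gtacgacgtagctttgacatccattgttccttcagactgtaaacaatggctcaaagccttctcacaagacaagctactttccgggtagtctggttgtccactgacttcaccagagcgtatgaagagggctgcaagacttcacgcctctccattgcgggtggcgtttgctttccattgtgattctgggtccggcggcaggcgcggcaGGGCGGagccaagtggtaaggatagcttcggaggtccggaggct
Cox8b (chr7:140900447-140900696, minus strand): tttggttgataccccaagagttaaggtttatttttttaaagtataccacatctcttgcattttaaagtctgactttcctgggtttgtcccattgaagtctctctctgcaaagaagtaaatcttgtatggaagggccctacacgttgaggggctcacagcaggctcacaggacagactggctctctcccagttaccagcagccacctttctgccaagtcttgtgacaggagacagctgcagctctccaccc
Cox8a (chr19:7217617-7217866, minus strand): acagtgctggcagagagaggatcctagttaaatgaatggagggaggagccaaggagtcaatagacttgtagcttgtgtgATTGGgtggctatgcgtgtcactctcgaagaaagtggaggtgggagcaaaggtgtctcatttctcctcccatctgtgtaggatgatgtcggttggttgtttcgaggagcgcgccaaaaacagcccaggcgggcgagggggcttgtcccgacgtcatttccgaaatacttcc
Cox6a1 (chr5:115348959-115349208, minus strand): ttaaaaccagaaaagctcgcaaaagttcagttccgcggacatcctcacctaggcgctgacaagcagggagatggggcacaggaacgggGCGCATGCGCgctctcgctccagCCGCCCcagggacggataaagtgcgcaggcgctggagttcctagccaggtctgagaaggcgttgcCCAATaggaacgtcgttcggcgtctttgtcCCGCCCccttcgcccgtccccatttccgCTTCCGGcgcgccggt
The muscle isoforms Cox7a1 and Cox8b had 4 and 1 CpG dinucleotides in this window, and their partners Cox7a2 and Cox8a had 14 and 11. Cox6a1 had 26, with overlapping NRF1 cores on the opposite strands at 162 and 160 bases before the start. Cox7a1 held CCAAT boxes at 137 and 74 bases before its RefSeq start, and Cox8b had no match to the motifs searched. The GENCODE start of Cox7a1, given above with its location, differs from the RefSeq start and lies inside the window shown. A match is a description of letters and not a binding site.

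Over all nuclear members with an entry, 68, the upstream windows had a median of 14 CpG dinucleotides against 6 over 27025 promoters of the same length. The NRF1 core was in 11.8% of member windows and 2.32% of all, the ETS motif in 16.2 and 7.05%, and the estrogen-related receptor motif (AAGGTCA) in 7.35 and 4.05%. The CCAAT box was in 44.1 and 34.5%, the GC box in 36.8 and 32.9%, the TATA box (TATAAA) in 10.3 and 13%, and the YY1 motif (AAGATGGCG) in 0.0 and 0.607%. All matches were sought on both strands, and overlapping matches of a motif count as 1 window.

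The surgery difference was next set side by side with vehicle and under 29P, since these comparisons share no libraries. In TAC 29P against Sham 29P, 3 nuclear members rose, Cox6a1 (log2 fold change 0.58, adjusted p = 0.022), Cox4i2 (0.87, adjusted p = 0.023) and Ndufa4l2 (0.67, adjusted p = 0.040), and 1, Sdha, fell (-0.31, adjusted p = 0.039). Of the mitochondrial members 8 fell and 0 rose. Over all genes 31.5% rose and 1.15% fell. The median log2 fold change was 0.02 for nuclear and -0.43 for mitochondrial members against +0.36 for all genes. Nuclear and mitochondrial members thus lay 0.34 and 0.79 below the all-gene median. With mt-free scaling 13 nuclear members fell (2.34% of all genes) and 0 rose. Without S14, 0 members of either genome passed in either direction, 8 nuclear and 4 mitochondrial members were lower at an unadjusted p of 0.05 (1.47% of all genes), and the medians were -0.11 and -0.29. With the run of animal numbers in the model, 0 nuclear members passed in either direction and 1 mitochondrial member fell (5.06% of all genes rose and 0.21% fell).

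Across the 85 nuclear members, log2 fold changes in the 2 comparisons had Pearson's r = 0.85 with all libraries and 0.77 without S14. This r is a description, since genes measured in the same mice are not independent replicates. Both sets of log2 fold changes also rose with GC content, with Spearman's rho 0.30 with vehicle and 0.38 under 29P over 81 members. The 2 differences had the same sign in 47 of 85 nuclear members with all libraries and in 77 of 85 without S14, of which 71 were lower in both. With mt-free scaling and all libraries the sign was shared by 70 of 85, of which 67 were lower in both. All 13 mitochondrial members were lower in both comparisons, with or without S14.

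**Figure D4:**
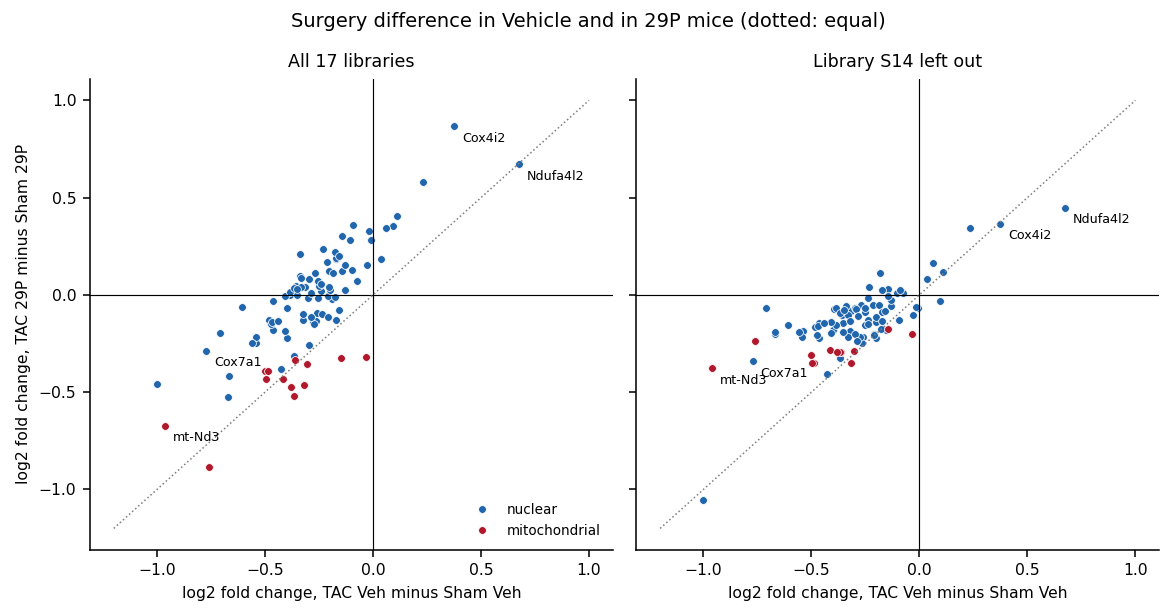
Log2 fold change of TAC against Sham for each member, with vehicle on the horizontal and under 29P on the vertical axis, using all libraries (left) and without the Sham 29P library S14 (right). Each point is a gene, the dotted line marks equal values, and without S14 most nuclear members move from around 0 to below 0 on the vertical axis.

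Over both treatments, TAC against Sham gave 27 nuclear members that fell and the 3 above that rose (Cox6a1 0.41, Cox4i2 0.62 and Ndufa4l2 0.67 on the log2 scale), and 11 mitochondrial members that fell, beside 3.16% of all genes that fell and 50.3% that rose. Cox6a1 did not keep its direction under every scaling: with the GC trend removed and mt-free scaling its log2 fold change was -0.06. With mt-free scaling 60 nuclear and 12 mitochondrial members fell and 1 rose (6.47% of all genes fell, 29.3% rose), and with TMM factors 74 and 13 fell and 0 rose (14.3% and 13.7%). The nuclear members Ndufv2, Cox6c and Atp5h, were lower in all 9 TAC than in all 8 Sham libraries, as were mt-Nd1, mt-Nd3, mt-Co2 and mt-Co3, against 0.216% of all genes. Ndufv2 was at 313 to 388 CPM in TAC and 402 to 528 CPM in Sham libraries.

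The study's treatment question is TAC 29P against TAC Veh. The TAC Veh group here lacks the library that the study removed because it clustered with Sham libraries. By limma no member passed at an adjusted p of 0.05 or less, and 0 of 98 were at an unadjusted p of 0.05 or less. Over all genes 0.0% passed in either direction after adjustment, and 0.95% were higher and 1.11% lower before it. Exact permutation p-values of single members, not adjusted, went down to 0.048, with higher means in TAC 29P. Means were higher in TAC 29P for 76 of 85 nuclear and 12 of 13 mitochondrial members, against 44.6% of all genes. The median log2 fold change was 0.08 for either genome and -0.02 for all genes. The median bounds of the 95% intervals of nuclear members were -0.18 and 0.33, and those of mitochondrial members -0.25 and 0.40. Without S2, 70 nuclear and 7 mitochondrial means were higher, with medians of 0.06 and 0.02. S2 is the only TAC Veh library from a run that also holds TAC 29P libraries. Treatment and run of animal numbers therefore cannot be fully told apart within TAC.

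Sdha had the smallest limma p in that comparison. It was at 736, 816 and 782 CPM in TAC Veh and at 783 to 1038 CPM (median 910 CPM) in TAC 29P. The groups overlapped, and the log2 fold change was 0.21 (95% interval -0.02 to 0.45, unadjusted p = 0.068, exact p = 0.071, adjusted p = 1.0 by limma). Ndufs1 was next, at 421, 492 and 422 CPM in TAC Veh and at 448 to 576 CPM (median 514 CPM) in TAC 29P, with a log2 fold change of 0.20 (95% interval -0.02 to 0.41, unadjusted p = 0.068 by limma). Cox7a1 differed by 0.20 as well (95% interval -0.03 to 0.43, unadjusted p = 0.086 by limma). With mt-free scaling 0 members passed after adjustment and 1, Sdha, was higher before it, by 0.24 (95% interval 0.01 to 0.47, unadjusted p = 0.042, adjusted p = 1.0 by limma), beside 1.39% of all genes.

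**Figure D5:**
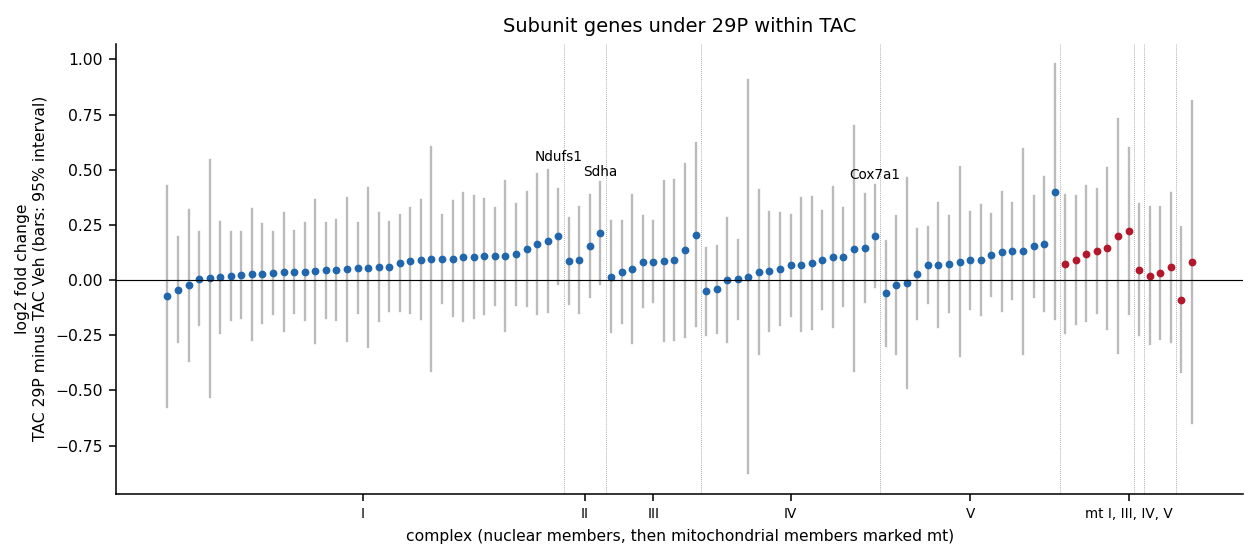
Log2 fold change of each member between TAC 29P and TAC Veh with its 95% interval, ordered within complex, nuclear members in blue and mitochondrial members in red. Means are above 0 for 88 of 98 members, and every interval includes 0 with the total as deposited.

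In Sham 29P against Sham Veh, 0 members passed after adjustment (0.0% of all genes in either direction), and 28 nuclear members were lower and 0 higher at an unadjusted p of 0.05, beside 5.15% lower and 1.57% higher over all genes. Among mitochondrial members 1, mt-Nd5, was higher (0.40 on the log2 scale, unadjusted p = 0.043 by limma). The nuclear median was -0.25 against -0.06 for all genes. Without S14 the count was 3 nuclear members lower (1.41% of all genes), with a median of -0.09. Ndufv3, a small complex I subunit, was at 167, 206, 164, 174 and 186 CPM in Sham Veh and at 153, 117 and 151 CPM in Sham 29P. All 3 values were below the Sham Veh range, and S14 was the lowest. The log2 fold change was -0.36 (unadjusted p = 0.0034 by limma) and -0.23 without S14 (unadjusted p = 0.039 by limma). The shared Sham 29P libraries also enter TAC 29P against Sham 29P.

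The test of whether the surgery effect differed between treatments gave 0 members after adjustment and 22 nuclear members higher at an unadjusted p of 0.05, beside 1.92% higher and 0.937% lower over all genes. Without S14 there was 1 (0.884% of all genes), and with the run of animal numbers in the model there were 3 (0.524% of all genes). The adjusted share over all genes was 0.0% in both directions. Cox7a1 had the smallest p, with an interaction of 0.48 on the log2 scale (95% interval 0.15 to 0.82, unadjusted p = 0.0068 by limma) that was 0.43 without S14 (unadjusted p = 0.020 by limma). The log2 ratio of Cox7a1 to Cox7a2 gave a difference of 0.01 between Sham 29P and Sham Veh (exact p = 0.95).

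Genes that build, feed or regulate the complexes changed in smaller numbers than the subunits in TAC Veh against Sham Veh, where 1.98% of all genes fell and 23.6% rose; this difference in number was not tested. Of 17 complex I assembly factors 1 fell, Ndufaf4 (log2 fold change -0.34, adjusted p = 0.036), and 0 rose. Of 22 complex IV assembly factors 1 rose, Cox19, which takes part in copper delivery (0.72, adjusted p = 0.0047), and 0 fell. Of the 4, 6 and 5 assembly factors of complexes II, III and V, 0 changed. Among 14 genes of electron carriers and coenzyme Q synthesis 2 fell, Cycs, which encodes cytochrome c (-0.51, adjusted p = 0.020), and Coq7, a hydroxylase of coenzyme Q synthesis (-0.42, adjusted p = 0.010), and Coq8b rose (0.93, adjusted p = 0.0079).

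None of 23 genes of mitochondrial transcription and RNA handling and none of 9 of mitochondrial DNA maintenance passed in either direction (limma, adjusted), with 1 lower and 1 higher at an unadjusted p of 0.05. Among 11 transcriptional regulators of respiratory chain genes 1 rose, Yy1 (0.47, adjusted p = 0.0054), and 0 fell. In TAC 29P against TAC Veh, none of these lists held a gene at an unadjusted p of 0.05 or less, and 0 passed after adjustment.

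Markers of other cells differed with surgery. Fibroblast markers rose in 7 of 8 genes in TAC Veh against Sham Veh, macrophage markers in 8 of 8 and erythroid markers in 5 of 5, beside 23.6% of all genes. Endothelial markers rose in 2 of 8, a share near that of all genes. The summed level of the 8 fibroblast markers was 812 to 1475 CPM in Sham and 1498 to 4109 CPM in TAC libraries, that of the 8 macrophage markers 111 to 246 and 265 to 443 CPM, and that of the 5 erythroid markers 562 to 2463 CPM in Sham and 1036 to 4992 CPM in TAC libraries. Of 10 cardiomyocyte markers 1 rose and 1 fell, of 4 smooth muscle markers 0 changed, and of 7 atrial markers tested 1 fell. In TAC 29P against TAC Veh all 5 erythroid markers were lower at an unadjusted p of 0.05 (median -1.11 on the log2 scale) and 0 after adjustment. Their part in the results for the subunit genes was not tested.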

How the data were processed

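RNA-sequencing libraries of 17 hearts in 4 groups were used. Reads were aligned by the authors with STAR 2.3.7 against mm10 (Partek Flow). The authors scaled counts to the library total, and deposited these CPM with 0.0001 added. They removed 2 libraries of low depth and 1 TAC Veh library before deposit. The counting tool and strand setting are not given in the sources used here. Of the low CPM values 81.6 to 84.2% were whole multiples (within 0.03) of the step that 1 read is worth, too few to restore counts, so no count test was run.

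Here limma 3.58.1 (R 4.3.3) was fitted to log2(CPM + 0.1) with 1 mean per group and a variance trend, over 16218 genes at 0.5 CPM or more in at least 3 libraries, with 13 residual degrees of freedom before moderation. Fold changes are on that scale and understate those of low genes. A call is a Benjamini-Hochberg adjusted p of 0.05 or less. The 6 contrasts, 4 pairwise, TAC against Sham and the interaction, used all libraries. Exact two-sided permutation tests (smallest p 0.0179 for 3 against 5, 0.0119 for 6 against 3 and 4.11e-05 for 9 against 8 libraries) used scipy 1.17.1 in Python 3.11.15, and numpy 2.4.6, pandas 2.3.3 and matplotlib 3.10.9 were used for tables and figures. The labels give 1 animal per library. Alternatives were mt-free scaling, in which the CPM are divided by the total without the 16 mitochondrial-encoded genes, TMM and median-of-ratios factors, other filters and constants, a covariate for the animal-number run, left-out libraries and removal of each library's trend with GC content. The model was tested on simulated data.

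Members and gene lists were chosen with earlier results of these data known. Genes named are the 13 mitochondrial members, tissue isoforms, core subunits, up to 3 nuclear members per complex with the smallest adjusted p in TAC Veh against Sham Veh and TAC against Sham, up to 5 with the smallest p in the treatment and interaction contrasts, members that failed the filter, and up to 2 genes each way per other list. Atp5k falls outside this rule and was named after its values were seen. Annotation (GENCODE vM21) matched 95 of 99 members; promoters came from RefSeq. The values of 1 core subunit gene are not reported here.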

Additional observations from a re-analysis of the deposited data

Results flagged for a closer look

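Of 144 group values checked, 7 had a library further from the rest than Dixon's 95% limit allows, and chance alone marks about 1 in 20. In Sham Veh, library S20 had a mitochondrial to nuclear ratio of 23.2 in complex IV, the lowest of its group, and a log2 level of Cox6a1 of 5.49, the highest. In TAC 29P, library S9 had the highest mitochondrial to nuclear ratio of complex V, 1.63. Library S11 had the lowest log2 levels of Atp5e (7.68), Ndufs4 (7.11) and Uqcrh (8.49) in TAC 29P, and library S18 the lowest of Cox4i1 (9.89). S18 and S20 are among the 3 libraries with atrial transcripts, and the part of these transcripts was not tested.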

How the results depend on the processing

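No paired analysis was possible because the groups share no replicate numbers. Among refits of named genes, 712 kept direction and call when 1 library was left out, 17 gained and 64 lost a call and 6 changed sign. Under the other alternatives the numbers were 697, 57, 80 and 3. Counts of members are not part of this tally, and many of them moved, as given below. The counts below are not set against all genes, whose share moved with the setting as well. In TAC Veh against Sham Veh, 1.98% of all genes fell with the total as deposited, 5.83% with TMM factors and 0.279% without S2. The counts therefore show how calls moved with the processing and are not a result about the members. Causes were not tested, except that fewer libraries enter where some are left out. Fits without named libraries and GC removal were chosen after seeing the data.

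In TAC Veh against Sham Veh, 0 nuclear members rose, and 1 did with 1 added before the log, with the filter in every library or with the GC trend removed (0 to 1 leaving out each library). Against 30 that fell there were 56 with mt-free scaling, 71 with TMM, 69 with median-of-ratios factors, 18 with the run as covariate, 9 without S18 to S20, and, mt-free, 64 without S14 and 59 with GC removed (2 to 45). Against 4 mitochondrial members that fell there was 1 without a filter, with only the groups compared or with GC removed, 0 without S18 to S20 on either total, and, mt-free, 8 without S14 and 1 without S6 (0 to 7).

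In TAC against Sham, 3 nuclear members rose, against 1 mt-free, 0 with TMM and median-of-ratios factors and, mt-free, 0 without S14 or with GC removed and 1 without S6 (2 to 6). Against 27 that fell there were 60 mt-free, 74 with either set of factors, 42 without S6 and S14 and, mt-free, 67 without S14, 55 without S18 to S20, 57 without S6 and 65 with GC removed (19 to 46). Of 11 mitochondrial members, 6 fell with GC removed (10 to 12).

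In TAC 29P against Sham 29P, 3 nuclear members rose, against 5 without S18 to S20 and 0 under mt-free scaling, both sets of factors, the run, without S6 and S14 or S14 and S18 to S20, and mt-free without S14, without S6 or with GC removed (0 to 13). The 1 that fell became 13 mt-free, 27 with TMM, 26 with median-of-ratios factors, 2 with the filter in every library, without S18 to S20 or with GC removed, 0 without a filter, with the run, with no trend or without S14 and others, and, mt-free, 0 without S14, 7 without S18 to S20, 16 without S6 and 14 with GC removed (0 to 2). The 8 mitochondrial members became 5 with 1 added or only these groups, 2 without a filter, 1 with the run, 3 without S18 to S20, 0 without S14 and others or with GC removed, and, mt-free, 0 without S14, 4 without S18 to S20 and 1 with GC removed (0 to 9).

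Before adjustment, 28 nuclear members were lower in Sham 29P than in Sham Veh, against 10 with TMM, 11 with median-of-ratios factors, 12 with only these groups, 10 without S18 to S20, 1 without S6 and S14, 0 without S14 and S18 to S20, and, mt-free, 1 without S14, 7 without S18 to S20, 6 without S6 and 18 with GC removed (3 to 45). The 1 mitochondrial member that was higher became 0 or 2 (0 to 2). For the interaction, 22 became 9 with either set of factors, 3 with the run or without S14 and S18 to S20, 13 with no trend, 11 without S18 to S20, 1 without S6 and S14 and, mt-free, 1 without S14 and 8 without S6 (1 to 39).

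The sign of mt-Atp6 (TAC Veh against Sham Veh) turned to 0.026 without S6 and S14 and 0.14 with GC removed, and ranged from -0.11 to 0.076 leaving out each library. Cyc1 ranged from -0.10 to 0.021. Cox6a1 (TAC against Sham) was -0.056 with GC removed, mt-free (0.29 to 0.54 leaving out each library). Log2 ratios in TAC 29P against TAC Veh ranged from -0.018 to 0.20 (Cox6a2 to Cox6a1), -0.077 to 0.17 (Cox8b to Cox8a), -0.063 to 0.27 (Cox4i2 to Cox4i1) and -0.33 to 0.082 (Ndufa4l2 to Ndufa4). With 3 libraries in TAC Veh and in Sham 29P, and no counts to model, depth limits the low members most.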
